A study of Mus musculus with 5 samples.

Results

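The housekeeping gene cluster described here is the stretch of mouse chromosome 13 from the Naip genes to Slc30a5, 100266365 to 100833480 in mm10, as seen by 4C-seq from the Pik3r1 promoter region. Its members are all DpnII restriction fragments whose listed position lies in that interval, 1487 of 292200 fragments on the chromosome and of 7284 in the tested region, which spans 1.5 Mb on both sides of the bait and omits 10 kb next to it. The cluster lies 932.9 to 1500.0 kb from the bait on its lower-coordinate side and overlaps 21 annotated genes, 14 of them protein-coding and 5 pseudogenes. In 4C-seq, chromatin is crosslinked, cut and religated, and the fragments joined to a chosen bait are sequenced, so reads on a fragment record that it lay close to the bait in some of the cells; how many cells made a contact and how often each did so cannot be told apart.

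The 5 libraries came from C57/Bl6 mice. DP thymocytes, sorted from wild-type thymus at 4 weeks of age by their CD4 and CD8a surface proteins, gave 1 library. Skeletal muscle nuclei from animals aged 10 to 12 weeks gave 2 libraries of WT and 2 of GRko genotype; GRko is read as glucocorticoid receptor knockout from knowledge of the study, while the promoter or cells in which the gene was deleted are not stated in the sources used here. Replicate 1 of both genotypes and the thymocyte library were read with 29 nt beyond the bait, replicate 2 of both genotypes with 23 nt. No expression was measured, so tissue identity and genotype could not be checked here, and nothing in the labels says whether replicates were separate animals, so the spread between libraries may be technical. Reads in the tested region numbered from 634064 in GRko replicate 2 to 4902222 in thymocytes, on 1062 to 4172 fragments with at least 1 read, called covered fragments below. WT replicates 1 and 2 held 2890841 and 1337018 tested reads, and those of GRko 1699603 and 634064. Libraries thus differed in depth with tissue and, at each read length, with genotype. A covered fraction can be compared directly between places within a library but not between libraries.

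Housekeeping genes are active in nearly every cell type and tend to lie close together in stretches of open chromatin, which in nuclei often meet other active chromatin. Genes of this cluster serve cell division and DNA repair (Ccnb1, Cenph, Rad17), general transcription (Cdk7, Taf9, Gtf2h2), and transport and metabolism (Slc30a5, Mrps36, Ak6). Marveld2 and Ocln serve cell junctions. The cluster is named for the stretch as a whole, and whether each gene is active in thymocytes or muscle was not measured. The Naip genes next to them are a repeated family of receptors for bacterial proteins that start inflammasome assembly, chiefly in macrophages.

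Because a contact is read only on a fragment bounded by DpnII sites (GATC) and shortened at a Csp6I site (GTAC), the promoters show where the assay could cut. Of the 4 shown, 3 belong to the genes with the highest share of tested reads per kb of span, averaged over the 5 libraries. The other is Ocln, the lowest of the 12 protein-coding genes outside the Naip family. Each covers 300 bases around an annotated start, 5′ to 3′ on the minus strand, from RefSeq on GRCm38.p6, with GATC and GTAC in capitals. The windows are chr13:100833378-100833677 for Slc30a5, chr13:100786437-100786736 for Ccnb1, chr13:100744610-100744909 for Mrps36 and chr13:100552669-100552968 for Ocln.
Slc30a5: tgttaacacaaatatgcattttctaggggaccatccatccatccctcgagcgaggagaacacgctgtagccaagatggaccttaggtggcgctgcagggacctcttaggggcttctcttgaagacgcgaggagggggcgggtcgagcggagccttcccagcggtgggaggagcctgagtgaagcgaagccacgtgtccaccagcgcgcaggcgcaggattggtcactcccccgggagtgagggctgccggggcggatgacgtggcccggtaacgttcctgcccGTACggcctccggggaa
Ccnb1: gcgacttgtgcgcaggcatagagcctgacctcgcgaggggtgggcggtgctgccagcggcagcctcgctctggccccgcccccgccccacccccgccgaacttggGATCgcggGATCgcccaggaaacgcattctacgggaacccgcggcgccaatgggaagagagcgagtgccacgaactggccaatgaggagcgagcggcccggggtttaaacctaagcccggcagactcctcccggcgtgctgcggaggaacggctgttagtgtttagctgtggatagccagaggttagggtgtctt
Mrps36: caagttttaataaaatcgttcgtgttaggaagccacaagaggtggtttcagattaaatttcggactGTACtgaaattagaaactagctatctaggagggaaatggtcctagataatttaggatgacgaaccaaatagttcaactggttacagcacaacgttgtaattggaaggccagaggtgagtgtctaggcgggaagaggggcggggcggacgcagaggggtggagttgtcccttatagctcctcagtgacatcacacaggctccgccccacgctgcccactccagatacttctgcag
Ocln: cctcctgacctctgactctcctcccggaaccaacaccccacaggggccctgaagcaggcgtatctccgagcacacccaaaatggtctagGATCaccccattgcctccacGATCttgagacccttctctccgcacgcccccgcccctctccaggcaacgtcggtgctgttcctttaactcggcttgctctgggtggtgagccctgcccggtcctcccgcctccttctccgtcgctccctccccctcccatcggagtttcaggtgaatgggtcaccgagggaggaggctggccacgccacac
Ccnb1 and Ocln each carry 2 GATC sites here, and the site nearer to the start is the upstream end of the fragment that holds the start. Slc30a5 and Mrps36 carry none, so their starts lie inside longer fragments of 1334 and 838 bp, against 266 bp for Ccnb1 and 640 bp for Ocln.

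Coverage fell along the cluster with distance from the bait and was nearly absent over the Naip genes, where unique placement of reads was not tested. The cluster was divided at the higher-coordinate end of Ocln into a gene-dense part of 667 fragments, from there to Slc30a5, and an Ocln-to-Naip part of 820 fragments. Which fragments hold a Csp6I site could not be determined, so those that could not be read count as uncovered in every share given here. Whether their share differs between the parts was not tested. In the gene-dense part 60.7% of fragments were covered in thymocytes, 21.6% and 5.70% for WT replicates 1 and 2, and 12.1% and 6.0% for those of GRko. In the Ocln-to-Naip part the covered fractions were 10.0% in thymocytes, 3.90% and 1.46% for WT replicates 1 and 2, and 2.56% and 0.976% for those of GRko. Every library covered the gene-dense part more densely, by 6.07-fold in thymocytes, 5.53- and 3.89-fold in the WT libraries and 4.74- and 6.15-fold in the GRko libraries. The mean log2 ratio was 2.38 ± 0.278 (SD, n = 5), higher than 0 in 5 of 5 libraries. An exact two-sided sign-flip permutation test gave p = 0.0625, the smallest that 5 libraries allow. Because the gene-dense part is the nearer to the bait, this test cannot tell a difference between the parts from one of distance. By reads, the gene-dense part took 4.91% of tested reads in thymocytes, 2.06% and 1.70% for WT replicates 1 and 2, and 2.32% and 0.967% for those of GRko, while the Ocln-to-Naip part took 0.507%, 0.431%, 0.333%, 0.424% and 0.0426% in the same order.

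The parts lie at different distances, so each was set against the interval at the same distances on the higher-coordinate side, which runs through much of Mast4. There the nearer interval was also covered more densely than the farther, but less so: 2.96-fold in thymocytes, 1.39- and 1.79-fold in WT muscle and 1.83- and 1.74-fold in GRko muscle. The step within the cluster exceeded that of its mirror interval in 5 of 5 libraries, with a mean difference in log2 ratio of 1.47 ± 0.424 (SD, n = 5; exact two-sided sign-flip permutation test, p = 0.0625, the smallest possible). In the 4 muscle libraries alone it was 1.58 ± 0.403. In muscle the gene-dense part itself was less covered than its mirror interval, which had 38.0% and 18.6% of fragments covered in WT and 23.1% and 10.0% in GRko. In thymocytes the order was turned, with 60.7% in the gene-dense part (95% Wilson interval 57.0 to 64.4) against 54.2% in the mirror (50.3 to 58.1); these intervals overlap and cover counting error only.

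**Figure D1:**
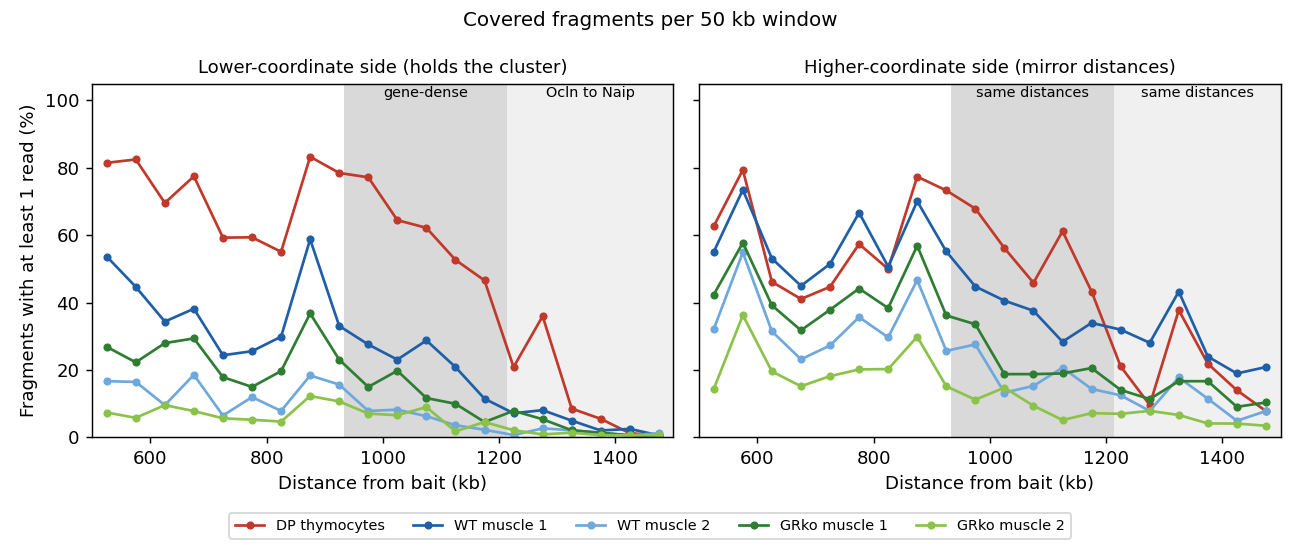
Share of fragments with at least 1 read (vertical axis, percent) in 50 kb windows against distance from the bait in kb, on the side of the cluster (left) and the other side (right), with 1 line per library. Dark grey marks the distances of the gene-dense part and light grey those of the Ocln-to-Naip part. On the left all 5 lines end at or below 1.25% in the farthest window, while on the right they end between 3.48% and 20.9%.

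Within the gene-dense part the thymocyte profile declined stepwise. The window 950 to 1000 kb from the bait, over Cenph, Ccnb1 and the lower end of Slc30a5, had 77.2% of fragments covered in thymocytes, and that at 1100 to 1150 kb, over Rad17, Taf9 and Ak6, had 52.7%. The window at 1200 to 1250 kb, mostly Ocln, fell to 20.9%. The next window, over Gtf2h2 and the lower part of Ocln, was higher again at 36.0%, and the 2 windows from 1400 kb, over Naip6, held 1.27% and 0.625%. The muscle libraries, all of lower depth, had 7.09% to 27.6% covered at 950 to 1000 kb and 0.901% to 8.11% at 1250 to 1300 kb.

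Coverage was lowest over the Naip genes, below that over Ocln and Gtf2h2 in every library. In replicate 2 of WT and of GRko this order rested on 4 and 3 covered fragments over Ocln and Gtf2h2. Their 95% Wilson intervals, 0.675% to 4.37% and 0.443% to 3.75%, overlapped those over the Naip genes, 0.69% to 2.66% and 0.363% to 1.97%. The stretch of 231 fragments over Gtf2h2 and Ocln was covered at 26.0% in thymocytes, 7.36% and 1.73% for WT replicates 1 and 2, and 6.49% and 1.30% for those of GRko. The 589 fragments below Gtf2h2, with Naip1, Naip6 and the pseudogenes Naip3 and Naip3-ps1, were covered at 3.74%, 2.55%, 1.36%, 1.02% and 0.849% in the same order. All 5 libraries were low here, with 95% Wilson intervals between 0.363% and 5.59%. None of the 45 fragments of Naip3-ps1 inside the cluster was covered in any library, which allows a share of up to 6.67% in each.

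Low coverage went on past the cluster and then ended. In the next 100 kb, over Naip5 and Naip2, 2.21% of 317 fragments were covered in thymocytes, 2.84% and 0.315% for WT replicates 1 and 2, and 1.58% and 0% for those of GRko. Between 100 and 500 kb beyond the cluster, 14.3% of 983 fragments were covered in thymocytes, 8.85% and 4.07% for WT replicates 1 and 2, and 3.76% and 2.03% for those of GRko, above the Naip stretch in every library although farther from the bait. The Naip genes are close copies of each other, and how reads with several matches were counted is not stated in the sources used here. How many reads of 23 or 29 nt could be placed uniquely there was not tested. Fragments were also shorter in the Ocln-to-Naip part, with a median of 237 bp against 298 bp in the gene-dense part, and in each part and library covered fragments had a higher median length than uncovered ones. Within each of 3 length classes (under 200, 200 to 500 and over 500 bp) the gene-dense part remained the more covered in all 5 libraries, 15 of 15 comparisons. Among fragments over 500 bp it was covered at 73.8% against 16.9% in thymocytes, 34% and 8.74% against 5.64% and 3.08% in WT muscle, and 20.9% and 7.77% against 4.62% and 2.56% in GRko muscle.

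**Figure D2:**
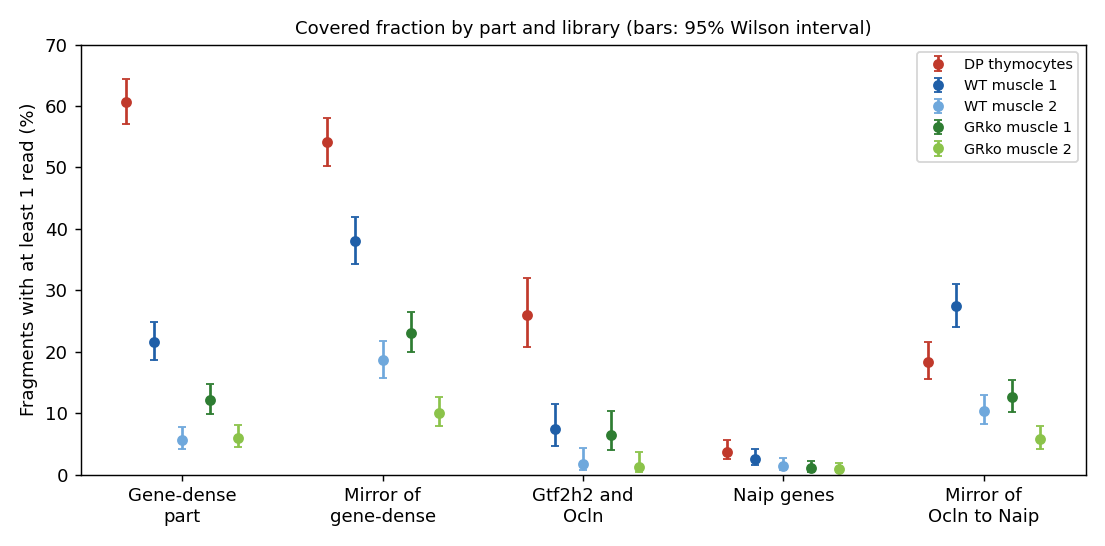
Share of fragments with at least 1 read (percent) in 5 intervals, with a point per library and bars for the 95% Wilson interval, which covers counting error only. The gene-dense part reaches 60.7% in thymocytes and at most 21.6% in muscle, whereas all libraries fall below 4% over the Naip genes.

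Among the genes of cell division and DNA repair, Ccnb1, which encodes the cyclin B1 that drives entry into mitosis, held 7848 reads in thymocytes, 8025 and 143 for WT replicates 1 and 2, and 269 and 31 for those of GRko. Of the 8025 reads, 7942 lay on 1 fragment. Cenph, a part of the kinetochore that ties chromosomes to the spindle, held 17554 reads in thymocytes, 3001 and 407 for WT replicates 1 and 2, and 4522 and 234 for those of GRko, on 75.0%, 19.4%, 13.9%, 22.2% and 16.7% of its 36 fragments. Rad17, which loads the checkpoint clamp onto damaged DNA, held 13035, 3302, 321, 200 and 0 reads in the same order of libraries. The 0 of 67 Rad17 fragments in GRko replicate 2 allows a share of up to 4.48%.

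The transcription genes spread over the whole cluster. Cdk7, the kinase of the general transcription factor TFIIH that also activates other cyclin-dependent kinases, had 63.2% of its 76 fragments covered in thymocytes, 28.9% and 9.21% for WT replicates 1 and 2, and 21.1% and 6.58% for those of GRko. Gtf2h2 encodes another TFIIH subunit and lies farther out, at 1274.0 kb. It had 30.5% of 82 fragments covered in thymocytes, 6.10% and 1.22% for WT replicates 1 and 2, and 3.66% and 0% for those of GRko, and its 5842 reads in WT replicate 1 and 5845 in GRko replicate 1 rested almost wholly on single fragments of 5740 and 5633 reads, at different positions. Taf9, a subunit of TFIID, shares its fragments with Ak6, an adenylate kinase, since their spans overlap. Taf9 held 4045 reads in thymocytes, 119 and 62 for WT replicates 1 and 2, and 164 and 0 for those of GRko, and Ak6 held 11967, 540, 4251, 166 and 3.

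Slc30a5, a zinc transporter and the gene nearest to the bait, had the highest mean over the 5 libraries of the share of tested reads per kb of span, although Mrps36 equalled it in thymocytes at 0.0387% per kb, Ccnb1 was higher in WT replicate 1 and Marveld2, Mrps36 and Cenph in GRko replicate 2. It held 58515 reads in thymocytes, 14771 and 13557 for WT replicates 1 and 2, and 8739 and 361 for those of GRko. In WT replicate 2, 12055 of its reads lay on the fragment at 100831805. Mrps36, named for the mitochondrial ribosome, held 16525 reads in thymocytes, 551 and 7 for WT replicates 1 and 2, and 1790 and 278 for those of GRko, on 12, 8, 1, 4 and 2 of its 17 fragments. Marveld2, the tricellulin of three-cell junctions, held 11139, 1996, 0, 262 and 4098 reads, of which the last is 4095 reads on 1 fragment, and 0 of 54 fragments in WT replicate 2 allows a share of up to 5.56%. Ocln, the tight-junction protein occludin, held 9261, 3209, 128, 893 and 121 reads on 138 fragments. Ccdc125, a coiled-coil protein gene, had 58.7% of 63 fragments covered in thymocytes and 3.17% to 23.8% in muscle. Naip1 held 1704, 2424, 4191, 6 and 108 reads, of which 4148 in WT replicate 2 lay on 1 fragment, and Naip6 held 23, 503, 20, 0 and 29.

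**Figure D3:**
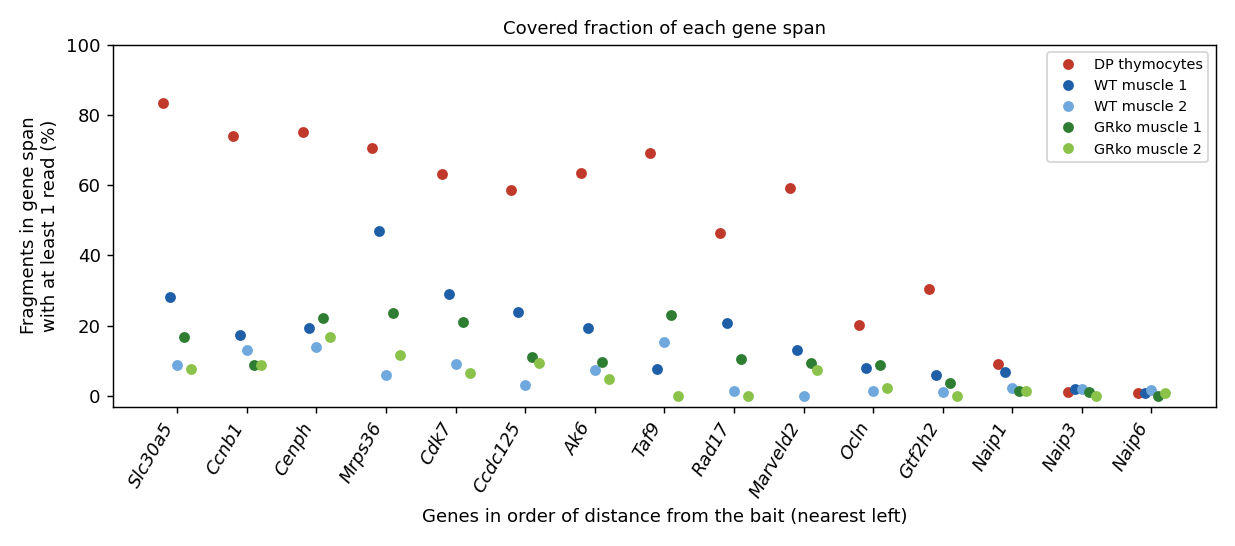
Share of the fragments in each gene span with at least 1 read (percent), with genes ordered by distance from the bait and a point per library. Thymocytes, the deepest library, range from 83.3% at Slc30a5 to 0.826% at Naip6, with 9.02% at Naip1, and no library exceeds 1.89% at Naip3 or Naip6.

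At least 1 fragment holding an annotated start was covered in 4 of the 5 libraries. The 17 annotated starts of the 14 protein-coding genes lie on 12 fragments (that of Slc30a5 has its midpoint just outside the cluster), of which 8 were covered in thymocytes, 4 and 1 for WT replicates 1 and 2, and 3 and 0 for those of GRko. Of all cluster fragments 32.8%, 11.8%, 3.36%, 6.86% and 3.23% were covered in the same order, and with 12 start fragments no difference from these shares was tested. The Mrps36 start fragment held 1610 reads in thymocytes and 0 in each muscle library. The fragment shared by the starts of Rad17, Ak6 and Taf9, with Rad17 running to the lower side and both others to the higher, held 653 reads in thymocytes, 195 and 0 for WT replicates 1 and 2, and 0 and 0 for those of GRko. The Cdk7 start fragment held 400, 268, 0, 40 and 0 reads. Ccnb1, whose start fragment is bounded by the GATC site shown above, held 65 reads on it in thymocytes and 5 in WT replicate 1. The Ocln start fragment, bounded in the same way, held 0 in all 5 libraries, and whether it holds a Csp6I site is not known. Within 5 kb of a start, 68.2% of 192 fragments of the gene-dense part were covered in thymocytes, against 57.7% of the other 475. In muscle the shares were 22.9% against 21.1% and 7.29% against 5.05% in WT, and 14.1% against 11.4% and 8.33% against 5.05% in GRko. Within the gene-dense part the share near starts was higher in 5 of 5 libraries, by 1.86 to 10.5 percentage points (exact two-sided sign-flip permutation test, p = 0.0625, the smallest possible). It rested on 44 and 14 covered fragments near starts for WT replicates 1 and 2, and 27 and 16 for those of GRko. The distance of 5 kb was chosen after seeing the files, so this was not a planned test. The Ocln-to-Naip part did not share this order, with 24.6% of 118 fragments near starts against 7.55% of the other 702 in thymocytes, 2.54% against 4.13% and 1.69% against 1.42% in the WT libraries, and 2.54% against 2.56% and 3.39% against 0.570% in the GRko libraries. Fragments near starts and the others were not matched for distance from the bait or for length. In the gene-dense part 46.5% of fragments under 200 bp and 73.8% of those over 500 bp were covered in thymocytes. Whether distance or length accounts for the higher shares near starts was not tested.

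Single fragments held much of the muscle signal. The fragment with most reads held 2.72% of the cluster's reads in thymocytes, 11% and 44.4% for WT replicates 1 and 2, and 21.6% and 64.0% for those of GRko. These were at 100828712 in Slc30a5 for thymocytes, 100783728 in Ccnb1 and 100831805 in Slc30a5 for WT replicates 1 and 2, 100560854, between Ocln and Marveld2, for GRko replicate 1 and 100614044 in Marveld2 for GRko replicate 2. The top fragments of thymocytes and of GRko replicate 2 had 0 reads in every other library. At 100831805 there were 1428 reads in thymocytes, 4873 and 12055 for WT replicates 1 and 2, and 1 and 1 for those of GRko, and at 100560854 there were 4019 in thymocytes, 0 and 0 for WT replicates 1 and 2, and 10100 and 0 for those of GRko. Only 2 fragments were covered in all 5 libraries, that at 100831805 and 100712006 in Cdk7, which held 107, 981, 12, 388 and 1 reads. Of the 1487 fragments, 890 were covered in none and 394 in 1 library. The gene-dense part held 467 of the 597 covered in any library, 132 of the 154 covered in exactly 2 and all 37 covered in exactly 3. Of the 10 covered in 4 libraries, 9 lay in the gene-dense part and 1 in the Ocln-to-Naip part. The WT replicates shared 14 fragments, 7.95% of those in replicate 1 and 28.0% of those in replicate 2, and the GRko replicates shared 10, 9.80% and 20.8%. Of all cluster fragments, WT replicates 1 and 2 covered 11.8% and 3.36%, and those of GRko 6.86% and 3.23%. Of the fragments of the gene-dense part, where most covered fragments lay, they covered 21.6% and 5.70%, and 12.1% and 6.0%. Across genotypes, WT and GRko replicate 1 shared 32 fragments, 18.2% and 31.4% of theirs, and WT and GRko replicate 2 shared 8, 16.0% and 16.7%. Thymocytes covered 191 of the 301 fragments found in any muscle library, 63.5%, beside 60.7% of all fragments of the gene-dense part and 32.8% of the whole cluster.

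The comparison of thymocytes with WT muscle asks whether the cluster is contacted differently in these tissues. The thymocyte library gave a larger share of its contacts to it than any muscle library. The cluster held 5.42% of tested reads in thymocytes, 2.49% and 2.03% for WT replicates 1 and 2, and 2.75% and 1.01% for those of GRko, a difference from the WT mean of 3.16 percentage points. In covered fragments it held 11.7% (95% Wilson interval 10.7 to 12.7) against 5.68% and 3.08% for WT replicates 1 and 2, and 4.63% and 4.52% for those of GRko, a difference of 7.30 points from WT. Thymocytes lay above all 4 muscle libraries by either measure; the difference in these shares, which rests on 1 thymocyte library, was not tested. Because the libraries differed in depth, the share was also taken from the 1062 fragments of most reads in every library. Thymocytes then had 6.59% in the cluster, WT muscle 3.11% and 1.88%, and GRko muscle 3.20% and 4.52%, where the last includes every fragment that library covered. Of these fragments 66 lay in the gene-dense part in thymocytes, 29 and 16 for WT replicates 1 and 2, and 29 and 40 for those of GRko, and 4, 4, 4, 5 and 8 in the Ocln-to-Naip part. By this count thymocytes were highest in the gene-dense part only, whereas among all covered fragments they were highest in the Ocln-to-Naip part too, with 1.97% against 0.738% to 1.03% in muscle. The higher thymocyte share was not particular to the cluster. The interval between the cluster and Pik3r1 held 35.6% of these fragments in thymocytes and 16.8% to 20.6% in muscle, and 30.3% against 14.0% to 16.4% of tested reads. The mirror interval of the cluster held 4.30% of tested reads in thymocytes and 4.76% to 7.65% in muscle, and 10.9% against 9.32% to 13.3% of covered fragments. Shares are parts of 1 total, so a higher share here and a lower share elsewhere cannot be told apart, and age differed with tissue.

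**Figure D4:**
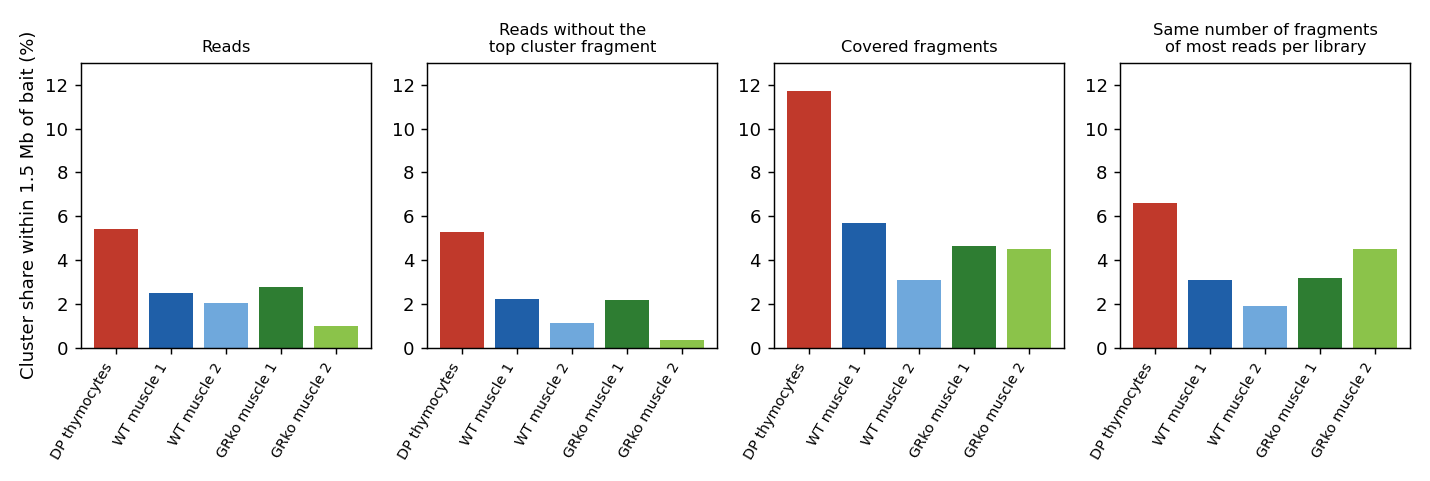
Share of the tested region that lay in the cluster (percent), by library, counted as reads, reads without the top cluster fragment of each library, covered fragments, and the 1062 fragments of most reads per library. Bars are single libraries without error bars; thymocytes are highest in each panel, from 5.28% to 11.7%.

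In 50 kb windows of covered fragments, fitted over the whole tested region in all 5 libraries with edgeR's quasi-likelihood test, 0 of the cluster's 9 tested windows passed an adjusted p of 0.05, as against 0% of all 58 windows. Unadjusted p was under 0.05 for 4 of the 9 and for 18 of the 58. DESeq2 called 0 of the 9 and 0% of the 58. All 9 had a log2 ratio of thymocytes over WT muscle above 0, with a median of 1.31, where 31 of all 58 were above 0 with a median of 0.060. That all were above 0 depended on the filter on low counts. Without it 9 of 11 cluster windows were above 0, with a median of 1.23, beside 31 of all 60 with a median of 0.038. The window at 100766365 to 100816364, over Ccnb1, had 98 covered fragments in thymocytes, 35 and 10 for WT replicates 1 and 2, and 19 and 9 for those of GRko (log2 ratio 1.33 ± 0.331, SE implied by p; edgeR adjusted p = 0.094). The window at 100466365 to 100516364, over Gtf2h2 and Ocln, had 40, 9, 3, 6 and 1 (1.91 ± 0.497; edgeR adjusted p = 0.0951). The window at 100716365 to 100766364, over Mrps36, had 78, 28, 10, 24 and 8 (1.23 ± 0.366; edgeR adjusted p = 0.118). Against all 4 muscle libraries edgeR called 2 of the 9, the first 2 of these, higher in thymocytes, with 17.2% of all windows called. With the 1062 fragments of most reads it called 2 of 6, those over Ccnb1 and Mrps36, with 32.7% of all windows called.

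Reads gave no calls in edgeR. In 10 kb bins 0 of 41 tested cluster bins passed in edgeR, 0% of all 284 bins passed, and 1 cluster bin had an unadjusted p under 0.05. DESeq2 called 2 cluster bins, 1 in each direction, with 1.41% of all bins called. The bin at 100560001 to 100570000, at the edge of the pseudogene Gm8847, held 5904 reads in thymocytes, 10 and 0 for WT replicates 1 and 2, and 10100 and 35 for those of GRko, so it did not set thymocytes apart from all muscle. The bin at 100420001 to 100430000, in Naip1, held 0 reads in thymocytes, 0 and 4182 for WT replicates 1 and 2, and 2 and 50 for those of GRko, and thus rested on WT replicate 2. The bins at 100750001 to 100760000 and 100620001 to 100630000 held 11066 and 3969 reads in thymocytes and at most 35 in a WT library (edgeR adjusted p = 0.99 for each). The ratio was below 0 for the bins at 100280001, in Naip6, with 23 reads against 503 and 0 in WT, and at 100510001, in Ocln, with 496 against 2435 and 119 (edgeR adjusted p = 0.99 for each). Over whole gene spans 0 of 15 tested in the cluster passed in edgeR, 0% of all 45 passed, 0 of the 15 had an unadjusted p under 0.05, while DESeq2 called 0 of the 15 and 2.22% of all 45. Ratios were above 0 for 12 of the 15 and for 25 of all 45, with a median of 0.81 against 0.54 over all 45. By read share, 7 of the 14 protein-coding genes were higher in thymocytes than in every muscle library: Slc30a5, Cenph, Mrps36, Ccdc125, Taf9, Rad17 and Ocln. The same count was not made over all genes of the tested region, so whether 7 of 14 is unusual there is not known.

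Setting GRko against WT muscle addresses the receptor's part in these contacts. Depth differed with genotype, since at each read length the GRko library held fewer tested reads than the WT library. The genotypes overlapped in the cluster's share of reads and in its share of covered fragments. Its share of tested reads was 2.26% ± 0.329 (SD, n = 2) for WT and 1.88% ± 1.23 (SD, n = 2) for GRko, a difference of -0.384 points with overlapping libraries (exact two-sided permutation test, p = 1.0, where 2 against 2 can reach 0.333). Between the 29 nt libraries GRko was 0.252 points higher, and between the 23 nt libraries the difference was -1.02 points. In covered fragments the shares were 4.38% ± 1.84 and 4.57% ± 0.075 (SD, n = 2 each), a difference of 0.197 points (exact permutation test, p = 1.0). With the 1062 fragments of most reads the difference was 1.37 points and the libraries did not overlap, with p = 0.333 in the exact permutation test, the smallest possible. The gap was narrow, with 33 of these fragments in the cluster for WT replicate 1 and 34 for GRko replicate 1. GRko replicate 2 had 48, and its 1062 fragments are all those it covered, unlike in the other libraries. The step between the parts was 2.47 and 1.96 on the log2 scale in WT and 2.25 and 2.62 in GRko muscle (exact permutation test, p = 0.667).

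Across 50 kb windows 0 of 8 tested in the cluster passed between the genotypes in edgeR, 0% of all 57 passed, and none of the 57 had an unadjusted p under 0.05. DESeq2 called 0 of the 8. The median log2 ratio of GRko over WT was -0.14 in the cluster and -0.094 over all windows. In 10 kb bins 0 of 31 passed in edgeR, 0% of all 270 passed, and 1 of the 31 had an unadjusted p under 0.05. DESeq2 called that bin, with 0.37% of all bins called. It is the bin at 100560001, whose 10100 reads in GRko replicate 1 all lay on 1 fragment, against 35 in GRko replicate 2 and 10 and 0 in WT muscle. The bin at 100480001 to 100490000, in Gtf2h2, held 79 and 0 reads for WT replicates 1 and 2, and 5633 and 0 for those of GRko. In the other direction the bin at 100700001 to 100710000, in Cdk7, held 6156 and 14 reads for WT replicates 1 and 2, and 32 and 4 for those of GRko. The bin at 100750001 held 35 and 3 against 935 and 486, and that at 100650001, in Ak6 and Taf9, 585 and 4251 against 166 and 1 (edgeR adjusted p = 0.969 for each). Over gene spans 0 of 15 passed in edgeR, 0% of all 44 passed, none of the 15 had an unadjusted p under 0.05, while DESeq2 called 0 of the 15 and 2.27% of all 44. Slc30a5 had a log2 ratio of -1.42 ± 1.73 and Cdk7 of 0.049 ± 2.32 (SE implied by p; edgeR adjusted p = 0.994 for each), intervals too wide to limit a change in single genes.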

How the data were processed

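For each of 5 4C-seq libraries the authors deposited unnormalised read counts by DpnII fragment of chromosome 13, with the bait at 101766365, per the file headers. Bowtie 1.0.0, bcl2fastq and mm10 are named in the submitters' processing notes; assignment of reads to fragments is not stated in the sources used here. Listed positions were taken as fragment midpoints, since all 311 pairs of adjacent GATC sites in chromosome 13 promoter sequences had their midpoint listed. Fragment ends were rebuilt from these sites to within 46 bp. Genes are from RefSeq, GRCm38.p6, which shares mm10 coordinates.

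Fragments were summed in 10 kb bins (reads), 50 kb windows from the bait (covered fragments) and gene spans. Those with at least 10 reads, or 3 covered fragments, in 2 libraries were tested with edgeR 4.0.16 (R 4.3.3) over the tested region, adjusted by Benjamini-Hochberg at 0.05. The SE is the one that edgeR's p implies. The single thymocyte library was assumed to vary like muscle. Windows and bins belong to the cluster by their midpoint. Single values were compared by exact permutation over libraries, from Python 3.11.15. The fits were tested on simulated counts. Named bins are the 3 of smallest p in each direction or fewer. Alternatives were DESeq2 1.42.0, TMM, other filters, widths and totals, libraries left out and the replicate number as a block. Members and lists were chosen with earlier results of these data known; the distance of 5 kb around starts, the length classes and the intervals beyond the cluster were chosen after seeing the files. Reads carry no molecular identifiers, so intervals and floors (3 counts for a 0) cover counting error only.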

Additional observations from a re-analysis of the deposited data

How the results depend on the processing

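The step between the gene-dense and Ocln-to-Naip parts kept its direction in every alternative run. The higher cluster share of thymocytes did so too: 1.80 points over WT with all chromosome 13 reads as total, 3.52 with reads capped at the 99th percentile, 3.68 with 25 kb left out around the bait, 3.60 without the top fragment of each library, and 4.10 in place of 7.30 with 1062 fragments of most reads per library, the last 2 chosen after seeing the data. Leaving out a WT library gave 2.93 to 3.39 points in reads and 6.0 to 8.60 in covered fragments. How much the step differed between thymocytes and WT was unsettled: 0.388 on the log2 scale, 1.49 with Gtf2h2 and Ocln counted as gene-dense, and 0.973 in reads per fragment.

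Genotype differences changed sign with the setting. In read share the difference was -0.384, and 0.252 within replicate number 1 and -1.02 within number 2 (the replicate block, which is also the read length); leaving out a library gave -1.25 to 0.485. In covered share it was 0.197, within the replicate block -1.05 and 1.44, and leaving out a library gave -1.10 to 1.5. In the log2 step it was 0.218, within the block -0.222 and 0.659, -0.0352 to 0.472 with a library left out, and -0.0763 when covered meant 10 reads. As a block in edgeR, the replicate number called 0 cluster bins or windows in either comparison and changed no call; only 2 numbers exist, so whether they pair samples could not be judged.

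DESeq2 called 1 cluster bin between genotypes and 2 between thymocytes and WT where edgeR called 0, and thymocyte windows rose from 0 to 2 calls against all 4 muscle libraries and with equal numbers of fragments. Log2 ratios of named bins that changed sign were those at 100280001 (from -4.20 to 1.12 against all muscle), 100510001 (-3.06 to 0.185 with a WT library left out) and, between genotypes, 100700001 (-7.39 to 0.274). Genotype windows changed sign with a library left out at 100466365 (-1.35 to 0.208), 100566365 (-0.424 to 0.965), 100616365 (-1.5 to 0.677) and 100716365 (-0.0637 to 0.665). That at 100566365, 0.00402 in the report's fit, was -0.0374 with the replicate block and -0.379 when covered meant 10 reads. The genotype window at 100716365 rose from 0.284 to 2.57 (edgeR adjusted p = 0.0912) with equal numbers of fragments. The cause was not tested. Few fragments carry the read counts in muscle: in GRko replicate 2, the shallowest library, 1 fragment held 64.0% of the cluster's reads.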

Other observations

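The promoter windows of the 14 protein-coding genes, 17 windows of 300 bases of which some overlap (Rad17 with Ak6 and Taf9), were searched on both strands for short sequences. GATC was in 4 of 17 (23.5%), in Ccdc125, Ccnb1, Naip1 and Ocln, against 48.0% of 32851 mouse promoters. GTAC was in 8 of 17 (47.1%) against 35.8%. CGGAAG, the core of ETS sites, was in 6 of 17 (35.3%), with Cdk7, Cenph, Gtf2h2, Naip1, Rad17 and Taf9, against 16.9%. ATTGG, the core of NF-Y sites on the reverse strand, was in 41.2% against 37.4%, and TATAAA in 17.6% against 13.6%, in Marveld2 and Naip1. A match is only a run of letters.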
